A study of Mus musculus with 6 samples.

Results

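The cytosolic ribosomal protein genes were taken as a fixed, widely expressed gene set and their promoters were followed library by library in microglia and macrophages of a mouse brain tumour. Members were the gene symbols of the authors' peak table that have the form Rpl or Rps with a number and an optional letter a, x, l or y and a further digit, together with Rpsa and Rplp0 to Rplp2, without names that carry -ps. This gave 76 of the 18755 genes named in the table, and the table types 2 of them, Rps4l and Rpl32l, as pseudogenes. The members named 212 of 92864 peaks, and 69 members had at least 1 peak within 1 kb of a start site.

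The data are ATAC-seq, in which the Tn5 transposase inserts sequencing adapters into open chromatin, so that reads pile up where DNA is accessible. Both groups were sorted from tumours of the mouse glioma line SB28, grown in the brain of mice of genotype WT. Microglia (MG), which are macrophages resident in the brain, were F4/80+ CD11b+ CD45lo, LY6C lo/-, LY6G- and CD49d lo/-. Bone marrow derived macrophages (BMDM) were F4/80+ CD11b+ CD45+, LY6C lo/-, LY6G- and CD49d high. Each group had 3 libraries. Whether these are separate animals is not stated in the labels, and each p-value therefore covers the library-to-library spread alone, part of which can be technical. The study asked how metabolism bears on gene expression and cell function, and the comparison its design implies is BMDM against MG.

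A cytosolic ribosome has a large subunit, which forms peptide bonds, and a small subunit, which reads the mRNA. Their proteins (Rpl and Rps) are made in near equal amounts, and the genes are transcribed at high rates in almost every cell type from short, nucleosome-poor promoters. Transcription of many of them starts at a C followed by an unbroken run of pyrimidines, the 5′ terminal oligopyrimidine (TOP) tract, through which mTOR signalling controls translation of the mRNA. Because they are active in nearly all cells, such promoters are often used as a constitutive reference.

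RefSeq (GRCm38.p6, which has the coordinates of mm10) gave 63 promoter sequences for 53 of the 69 members with a promoter peak. In 11 of the 63 the annotated start was a C followed by at least 4 C or T, which was 17.5% of the sequences, against 2.31% of 13885 sequences of the other promoters tested. They are shown because this tract is the sequence mark for which the family is known. Each stretch covers 10 bases before and 20 bases from the start on the gene's strand, and capitals mark the pyrimidine run from the first transcribed base.
Rpl35 (chr2:39005112-39005141, minus): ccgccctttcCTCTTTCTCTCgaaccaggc
Rps6 (chr4:86857348-86857377, minus): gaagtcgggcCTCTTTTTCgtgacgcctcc
Rpl28 (chr7:4792955-4792984, plus): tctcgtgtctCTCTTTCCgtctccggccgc
Rps15a (chr7:118116128-118116157, minus): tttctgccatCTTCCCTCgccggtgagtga
Rplp2 (chr7:141447641-141447670, plus): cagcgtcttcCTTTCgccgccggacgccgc
Rpl14 (chr9:120571507-120571536, plus): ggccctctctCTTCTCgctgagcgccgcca
Rpl38 (chr11:114668570-114668599, plus): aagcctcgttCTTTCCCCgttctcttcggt
Rpl15 (chr14:18270967-18270996, minus): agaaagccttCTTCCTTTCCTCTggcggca
Rpl35a (chr16:33056472-33056501, plus): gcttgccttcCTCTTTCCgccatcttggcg
Rps10 (chr17:27635225-27635254, minus): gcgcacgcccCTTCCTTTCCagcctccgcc
Rps18 (chr17:33955646-33955675, minus): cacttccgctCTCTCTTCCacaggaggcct
The runs were 5 (Rplp2) to 13 (Rpl15) bases long.

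A short motif of ETS-family transcription factors, CCGGAAG on either strand, was present between 250 bases before and 50 bases after the start in 21 of 63 member sequences (33.3%), 14.2% of the other promoters tested and 8.86% of all 32851 promoter sequences of the table. It is shown in capitals for 4 members with a match close upstream of the start.
Rpl37 (chr15:5116564-5116623, plus): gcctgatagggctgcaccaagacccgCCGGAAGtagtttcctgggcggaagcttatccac
Rpl41 (chr10:128549191-128549250, minus): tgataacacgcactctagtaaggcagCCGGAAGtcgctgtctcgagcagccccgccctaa
Rps3a1 (chr3:86142649-86142703, minus): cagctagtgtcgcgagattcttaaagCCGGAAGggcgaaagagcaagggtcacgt
Rpl38 (chr11:114668534-114668593, plus): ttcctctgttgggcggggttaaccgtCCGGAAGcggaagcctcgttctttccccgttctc
In these 4 sequences the match began 23, 56, 9 and 20 bases before the start.

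The other motifs differed less or were rare. The palindrome CTCGCGAG was found in 6 member sequences (9.52%, against 1.45% of other promoters and 0.919% of all), the YY1-type motif AAGATGGC in 7 (11.1%, against 3.46% and 2.75%) and the cyclic AMP response element TGACGTCA in 4 (6.35%, against 2.71% and 1.79%). A GC box, GGGCGG, was in 61.9% of member sequences, close to the 58.4% of other promoters, and above the 35.7% of all. The CCAAT box was in 31.7%, against 37.2% and 37.4%. The E-box CACGTG was in 12.7%, against 9.4% and 7.15%, and GCATGCGC (NRF1-type) in 4.76%, against 4.43% and 2.71%. TATAA on the gene's strand, between 40 and 19 bases before the start, was in 4 member sequences (6.35%), against 2.19% and 3.44%. Median GC content was 58.0% in members and 60.0% in the other promoters. All these motifs except TATAA were searched on both strands, and matches of different motifs may overlap. Some genes have several overlapping sequences, so a site may be counted more than once. Among these are Rpl35a (YY1-type), Rps19 (CTCGCGAG), and Rpl19 and Rpl34 (E-box). The matches are a description of the letters and were not tested as binding sites.

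**Figure D1:**
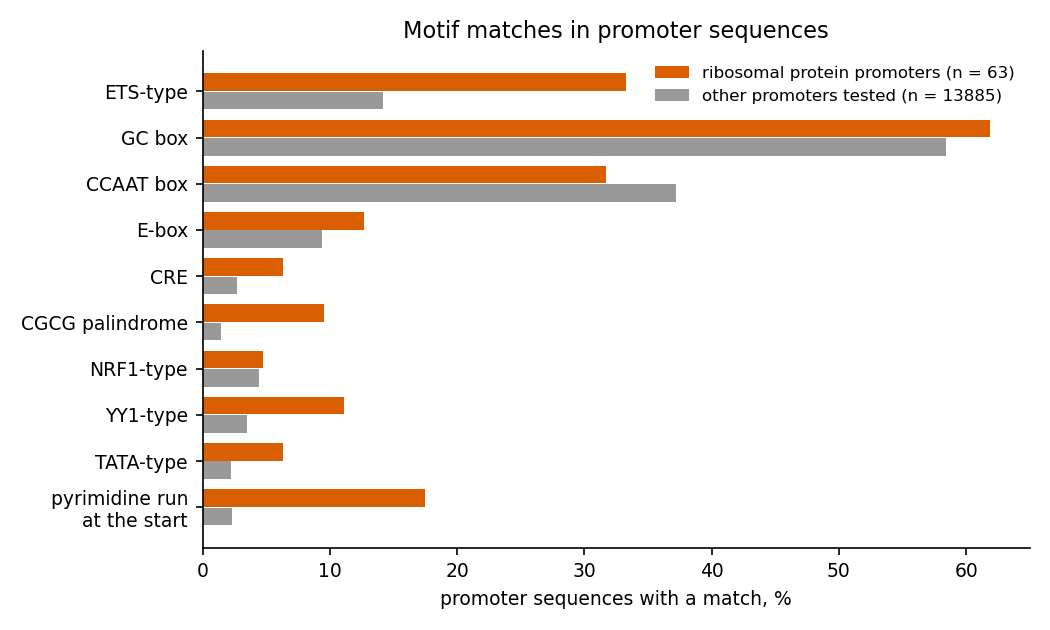
Share of promoter sequences (%, horizontal axis) with a match to each motif, for ribosomal protein promoters (orange, n = 63) and the other promoters tested (grey, n = 13885). The pyrimidine run at the start (17.5% against 2.31%) and the ETS-type motif (33.3% against 14.2%) are more frequent among the members, while the GC box (61.9% against 58.4%) is at a similar share.

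The libraries held 4910448 (BMDM 3) to 23601865 (MG 2) reads in peaks. The sorted cells were checked with marker lists at promoters. Of 17 tested promoters of microglial identity genes 7 fell in BMDM, among them those of P2ry12, Tmem119 and Sall1, and of 16 promoters of monocyte and macrophage identity genes 7 rose, among them Itga4, which encodes the sorting antigen CD49d, Ly6c2 and Clec4e (limma, adjusted p under 0.05). No gene of these or the other marker lists that had a peak was at 0 in any library. Promoters of neural and glial genes fell at 9 of 18 in BMDM. Over all promoters tested, 9.3% were called lower in BMDM and 2.28% higher. Peaks of that list took 0.0711% to 0.183% of reads in the MG libraries and 0.0636% to 0.0924% in the BMDM libraries, with the highest share in MG 2. Of the remaining lists, neutrophil genes rose in BMDM at 3 of 6 promoters, T, NK and B cell genes at 4 of 11 and endothelial genes at 1 of 7. The part that other cells had in the values below was not tested. In a bulk sort, fewer cells with an open site and a less open site in every cell cannot be told apart.

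Most promoters of ribosomal protein genes were more accessible than the median promoter. A promoter's value is the sum of normalized counts over its peaks within 1 kb of a start site, scaled with the authors' size factors. The members' median over 6 libraries was 643 normalized counts, with a range of 79.2 to 1678, and the median of all 14102 promoters tested was 400. Of the 69 members 64 lay above that median. All 69 passed the filter of a mean of 10 counts.

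Among the most accessible were Rpl18, Rps19, Rpl37 and Rpl7. Rps19, a small-subunit protein whose gene is mutated in Diamond-Blackfan anaemia, had 2391, 1281 and 1633 normalized counts in MG 1 to 3 and 2008, 1678 and 942 in BMDM 1 to 3. The groups overlapped, with the highest value in MG 1 and the lowest in BMDM 3. Rpl18, a large-subunit protein, had 2339, 1326 and 1525 in MG and 2170, 1613 and 1096 in BMDM, in the same order of libraries at both ends. Its largest peak (chr7:45714890-45716565) had its summit at −2725 bp from the RefSeq start (median over the 6 lists) and a mean of 1087. The peak over the start (chr7:45717622-45718545), which was summed with it, had a mean of 591, below the members' median. Rpl7, also of the large subunit, had a mean of 1205.

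The least accessible were Rps4l, Rpl3, Rps4x, Rpl6 and Rps28. Rps4l had 160, 47.6 and 101 counts in MG and 53.6, 40.1 and 72.5 in BMDM, with overlapping groups and the largest spread of all members (SD over 6 libraries of 0.74 on the log2 scale). The table types this gene as a pseudogene. Rps4x, the X-linked small-subunit gene, had 370, 302 and 300 in MG and 280, 238 and 187 in BMDM. Rpl6 had a mean of 332 and Rps28 of 387.

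The value of Rpl3 did not include the peak over its start. Rpl3 encodes a core protein of the large subunit. Its 2 peaks within 1 kb held 210, 211 and 201 counts in MG and 149, 131 and 88.8 in BMDM. They do not cover its RefSeq start at chr15 position 80083406. The peak there (chr15:80082771-80084130) carries the name of Snord43, a small nucleolar RNA gene, and held 1165, 746 and 839 counts in MG and 678, 813 and 495 in BMDM. On that peak the groups overlapped. Over the 76 members, the start lay in a peak of the member's own name for 66, in a peak named after another gene for 7 (among them Rpl26, Rpl3, Rpl32, Rpl36, Rps21 and Rps27a) and in no peak used here for 3 (Rpl10l, Rpl17 and Rpl32l).

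The 7 members with no promoter peak of their own included Rpl10l, Rpl26, Rpl32, Rpl32l, Rps21 and Rps27a, and for 5 of the 7 the start-site peak had another name. The peak over the start of Rps21, a small-subunit protein, is named after Mir3091 and had a mean of 1042 counts, and that of Rps27a, a ubiquitin fusion with a small-subunit protein, is named after Clhc1 and had a mean of 660. The peaks of Rpl32 (named after Snora7a) and Rpl26 (Gm15772) had means of 531 and 450. A further 13 names in RefSeq match the rule but name no peak in the table. For 4 of these a peak under another name covers the start: Rps2 (Snora78, mean 928), Rpl7a (Med22, 863), Rps27 (Rps27rt, 528) and Rpl12 (Lrsam1, 436). All 9 such start-site peaks had their highest value in MG 1 and their lowest in BMDM 3, as most members did.

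Across libraries the members moved together. Of 69 members 64 were highest in MG 1 and 67 were lowest in BMDM 3. Relative to each promoter's own mean, the median member stood 0.56 higher on the log2 scale in MG 1, −0.16 in MG 2, 0.01 in MG 3, 0.20 in BMDM 1, 0.08 in BMDM 2 and −0.66 in BMDM 3. Other promoters of similar level (5423 promoters between 405 and 1150 counts, the 10th to 90th percentile of the members) had 0.46 in MG 1 and −0.67 in BMDM 3. All promoters had 0.38 and −0.57. The 68566 peaks outside 1 kb of a start site stood at −0.12 in MG 1 and 0.08 in BMDM 3. BMDM 3 was the shallowest library, and MG 1 had the largest share of reads in promoter peaks (63.5%, against 52.5% in BMDM 3). What sets these offsets was not tested.

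**Figure D2:**
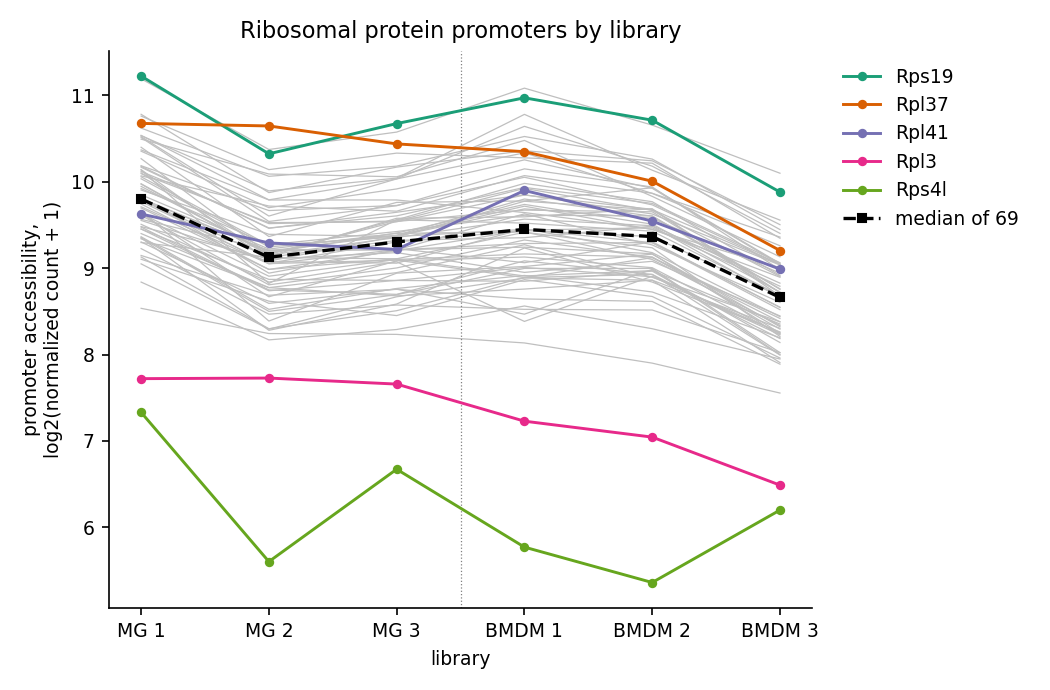
Promoter accessibility of the 69 ribosomal protein genes (grey lines, log2 of normalized count + 1) in the 6 libraries, with 5 named genes in colour and the median as black squares. The lines run nearly in parallel, high in MG 1 and low in BMDM 3, while Rps4l and Rpl3 lie far below the rest. The value drawn for Rpl3 leaves out the peak over its RefSeq start, which had a mean of 789 normalized counts.

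**Figure D3:**
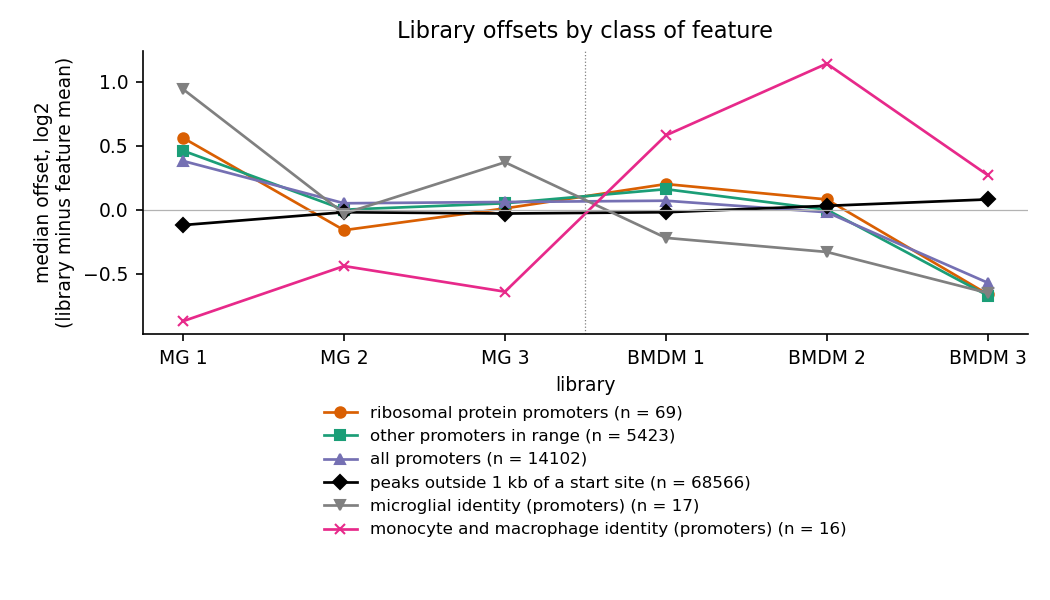
Median offset of each library (log2, library minus the feature's own mean) for ribosomal protein promoters, other promoters of similar level, all promoters, peaks outside 1 kb of a start site, and promoters of microglial and of monocyte and macrophage identity genes. The members run from 0.56 in MG 1 to −0.66 in BMDM 3, beside 0.46 and −0.67 for promoters of similar level, and the peaks outside 1 kb stay between −0.12 and 0.08.

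The members' spread was close to that of other promoters of their level. Their median SD over 6 libraries was 0.43 (log2), against 0.42 for other promoters of similar level and 0.45 for all. Scaling each library to its total reads in peaks lowered these to 0.21, 0.21 and 0.31. The smallest spreads were those of Rps14 (0.27), Rpl31 (0.30), Rpl6 (0.31), Rpl41 (0.33) and Rpl36 (0.33), and the largest, after Rps4l, those of Rpl37 (0.55), Rps23 (0.55), Rpl27a (0.53) and Rps12 (0.51). Rps14, a small-subunit protein lost in the 5q- syndrome, had 1073, 842 and 808 counts in MG and 1075, 933 and 656 in BMDM, so that the groups overlapped. Its SD is that of a sum of 2 peaks. The peak over the RefSeq start held 1056, 737 and 758 in MG and 996, 850 and 589 in BMDM. The other, away from that start, held 16.7, 104 and 49.6 in MG and 79.3, 83.5 and 67.0 in BMDM. Rps23, which sits at the decoding centre of the small subunit, had 1125, 452 and 754 in MG and 1010, 872 and 482 in BMDM, so that the spread lay within both groups.

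Each member's profile was set against the mean of the other members over the 6 libraries. Pearson's r had a median of 0.96 and exceeded 0.9 for 55 of 69 members, against a median of 0.904 for other promoters of similar level and 0.734 for other promoters at large. With the members' mean, r also exceeded 0.9 for 2780 of the 5423 other promoters of similar level. These are descriptions over 6 libraries of unequal depth, and all promoters of a library share its depth and preparation. Least like the rest were Rps4l (0.386), Rpl3 (0.682), Rpl19 (0.738), Rpl41 (0.777) and Rpl37 (0.78). Outside the members, the 3 promoters most like their mean were those of Rbpj (r of 0.9996), Tollip (0.999) and Arrb2 (0.9988). Rbpj, the DNA-binding factor of Notch signalling, had 3260, 1872 and 2141 counts in MG and 2456, 2207 and 1301 in BMDM.

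In the fit of all 6 libraries with the authors' size factors no ribosomal protein promoter was called different between the groups. In the fit over all promoters 0 of 69 members were called higher in BMDM, where 2.28% of all promoters were, and 0 were called lower, where 9.3% were (limma, Benjamini-Hochberg adjusted p under 0.05). At an unadjusted p under 0.05 there were 0 higher and 1 lower, Rpl3. The median difference, BMDM minus MG, was −0.25 on the log2 scale (range −0.78 to 0.10), beside −0.33 for all promoters and for the others of similar level. It was below 0 for 66 members and above 0 for 3, but the direction depends on the scaling: the members' median was −0.06 with library totals, 0.06 with cyclic loess and 0.03 without BMDM 3. With cyclic loess 1 member was called higher (Rpl41, a difference of 0.43 in place of 0.10, limma adjusted p 0.0328) and 1 lower (Rpl10a, −0.35, limma adjusted p 0.0491), with 7 higher and 3 lower before adjustment at p under 0.05. Standard errors were 0.32 to 0.45, so differences of the size of the median were not detectable with 3 libraries a group. In this fit the variance shared across promoters took nearly all the weight, and each promoter's own spread hardly entered its p.

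**Figure D4:**
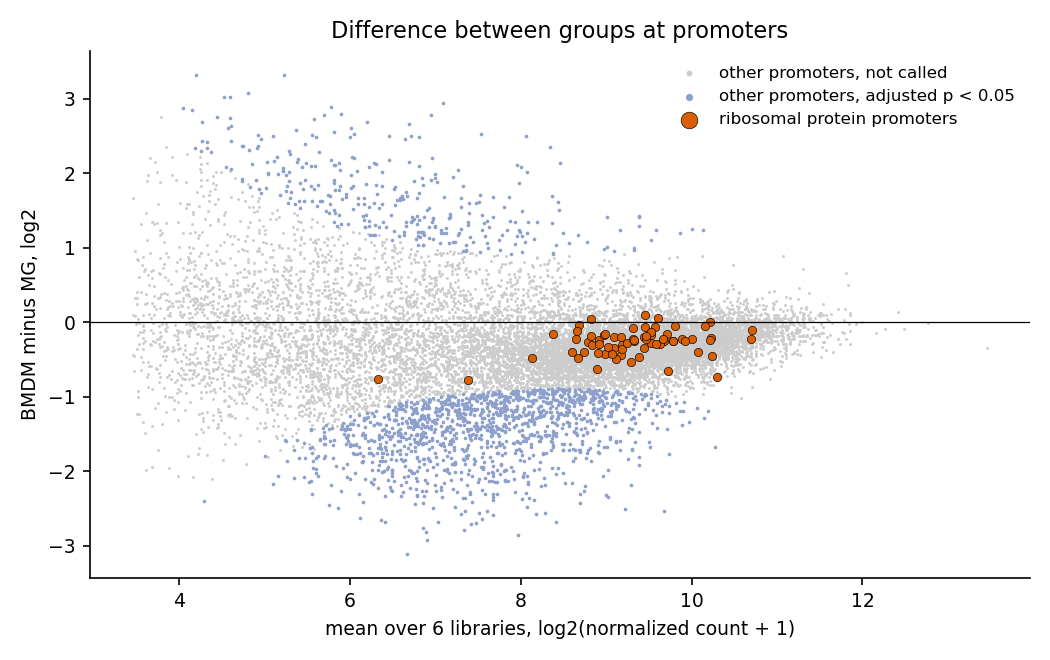
Difference between groups (log2, BMDM minus MG) against the mean over 6 libraries (log2 of normalized count + 1) for 14102 promoters. Ribosomal protein promoters (orange) lie in the uncalled part, between −0.78 and 0.10, while 322 promoters were called higher and 1311 lower in BMDM (blue).

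The 2 groups did not overlap for 7 members, all lower in BMDM (10.1%, where 23.9% of all promoters did so), and for 0 members higher in BMDM (4.58% of all). These were Rpl3, Rpl37, Rpl10a, Rpl8, Rps4x, Rpl36 and Rps10. Rpl37, a large-subunit protein, had 1635, 1602 and 1387 counts in MG and 1303, 1028 and 589 in BMDM. Its difference was −0.73 ± 0.40 (SE) with a limma adjusted p of 0.265. Rpl10a had 1322, 884 and 884 in MG and 799, 699 and 475 in BMDM, a difference of −0.65 ± 0.36 with a limma adjusted p of 0.27. Rpl3 had the lowest adjusted p of the members (−0.78 ± 0.34, limma adjusted p 0.129), on peaks that are not those of its start site. The peaks named after Rpl36 do not cover its start either: the peak there is named after Micos13 and held 813, 644 and 672 counts in MG and 863, 637 and 480 in BMDM. The peak over the start of Rps10 alone held 708, 450 and 532 in MG and 464, 512 and 279 in BMDM. At these start-site peaks of Rpl3, Rpl36 and Rps10 the groups overlapped.

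Other members at the ends of the range had overlapping groups. Rpl19, of the large subunit, had 727, 457 and 538 counts in MG and 333, 479 and 299 in BMDM (−0.63 ± 0.33, limma adjusted p 0.229). Rps4l had −0.76 ± 0.41 (limma adjusted p 0.264). At the other end stood Rpl41, a very short and basic protein of the large subunit, with 790, 626 and 594 in MG and 954, 746 and 507 in BMDM (0.10 ± 0.35, limma adjusted p 0.887), Rps23 (0.05) and Rpl36a (0.04). Rpl13a had 1482, 951 and 1054 in MG and 1758, 1123 and 752 in BMDM, and Rpl24 differed by −0.04.

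The parts of the ribosome had similar values. The 37 promoters of large-subunit proteins had a median difference of −0.25 and the 25 of small-subunit proteins one of −0.24, with median levels of 625 and 663 counts. The stalk proteins, which recruit the translation GTPases to the large subunit, were close to these. Rplp0 had 1485, 885 and 1047 counts in MG and 1597, 1160 and 676 in BMDM, and Rplp1 and Rplp2 had means of 545 and 817. Their differences were −0.05, −0.20 and −0.26. Rpsa, the small-subunit protein also known as the laminin receptor, had 986, 579 and 678 in MG and 853, 728 and 422 in BMDM, a difference of −0.19.

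Of the paralogs 4 had a promoter peak: Rpl22l1, Rpl7l1, Rps27l and Rps4l. Rpl22l1 had 1065, 615 and 656 counts in MG and 875, 818 and 527 in BMDM, and its parent gene Rpl22 1099, 562 and 763 in MG and 772, 824 and 409 in BMDM. Their differences were −0.06 and −0.28. Rps27l had 1111, 731 and 747 in MG and 970, 813 and 478 in BMDM, and Rpl7l1 had a mean of 581 and a difference of −0.36. Rpl10l and Rpl32l had no peak over the start. Reads of near-identical copies may be split or lost in alignment, and how multiply mapped reads were handled is not stated in these sources.

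Member sequences with and without the printed TOP tract at the annotated start had similar values. The split rests on the base annotated as the start, so a sequence without a match is not known to lack a tract. The annotated starts of Rpl35a fall on both sides, with the same promoter level. Whether promoters with and without a tract differ was therefore not tested. The 11 sequences with a tract belonged to promoters with a median level of 644 counts and a median difference of −0.25, against 694 and −0.23 for the member sequences without. Rps6, the target of the S6 kinases, had 891, 588 and 592 counts in MG and 791, 616 and 388 in BMDM. Rpl15, with the longest run, had 1164, 812 and 846 in MG and 1061, 850 and 527 in BMDM. In both genes the groups overlapped. Member sequences with the ETS-type motif had a median level of 703 counts, against 647 without, and median differences of −0.23 and −0.24. Among the other promoters the levels were 535 with the motif and 417 without.

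Read as a share of each library, the members did not separate the groups. Their promoters took 0.442%, 0.323% and 0.383% of reads in peaks in MG 1 to 3 and 0.384%, 0.378% and 0.326% in BMDM 1 to 3. The exact Clopper-Pearson 95% intervals ran from 0.439 to 0.4449 for MG 1 and from 0.321 to 0.3256 for MG 2, and they cover counting error only. The spread between libraries of 1 group was therefore larger than counting error. The mean was 0.383% ± 0.0593 (SD, n = 3) in MG and 0.363% ± 0.0317 in BMDM, with a two-sided exact permutation p of 0.7, where the smallest possible is 0.1. Of the reads in promoter peaks the members took 0.633% ± 0.0615 in MG and 0.648% ± 0.0279 in BMDM (exact permutation p 0.9, n = 3), so the direction turned with the denominator. Without MG 1 the share of all reads in peaks was also higher in BMDM, by 0.0098 percentage points.

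In a fit that took the members as the reference, the calls at other promoters differed. Size factors from their promoters alone were 1.47 times the deposited factor in MG 1, 0.889 in MG 2, 1.01 in MG 3, 1.15 in BMDM 1, 1.05 in BMDM 2 and 0.629 in BMDM 3. With them 87 promoters (0.615%) were higher and 89 (0.629%) lower in BMDM, in place of 322 and 1311, and the median over all promoters moved from −0.33 to −0.07. At an unadjusted p under 0.05 (limma), 1126 were higher and 1334 lower, in place of 578 and 2623. The degrees of freedom of the test differed too, at 9.21 in place of 56408, so each promoter's own spread had more weight. How far the scaling or this difference set the calls was not tested. The members' median became 0.02, which the scaling sets, and the count called was again 0 of 69 (at an unadjusted p under 0.05, 1 higher and 3 lower; lowest limma adjusted p 0.117). In that fit the calls in the marker lists were fewer too. Called higher in BMDM were 4 promoters of the monocyte and macrophage list in place of 7, 1 of the T, NK and B cell list in place of 4, 0 of the neutrophil list in place of 3 and 0 of the endothelial list in place of 1. Called lower were 2 of the microglial list in place of 7 and 0 of the neural and glial list in place of 9. New size factors shift the differences of all promoters by nearly the same amount. The median difference therefore moved up in every marker list too, which the scaling sets. It went from 1.29 to 1.53 (monocyte and macrophage), 1.38 to 1.63 (neutrophil) and 0.97 to 1.24 (T, NK and B cell). In the other lists it went from −0.86 to −0.6 (microglial), −1.31 to −1.05 (neural and glial) and −0.36 to −0.1 (endothelial).

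The authors' separate peak list of each library held nearly every member promoter. Of 69 members 68 had a listed peak in each of MG 1 to 3, BMDM 1 and BMDM 2, and 67 had one in BMDM 3. The larger promoter peak named after Rpl3 was in no list, and Rps4l was missing from that of BMDM 3. All 6 lists held 67 of 69, beside 63.9% of all promoters and 96.4% of other promoters of similar level. The authors' fold enrichment over local background was, for the median member, 12, 9.24 and 12.1 in the MG lists and 11.5, 9.44 and 6.56 in the BMDM lists. Ranked within each list, the median member stood at percentile 77.1, 80.6 and 84.7 in MG and 83.1, 85.2 and 69.7 in BMDM. Peak summits lay close to the RefSeq start in the 53 members with one in the promoter table, with a median of −17 to −40 bp and 36 to 43 of 53 within 100 bp. The members' largest peaks had a median width of 1226 bp, against 1218 for all promoters and 1371 for those of similar level.

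Promoters of related gene groups were not called either. None of 57 mitochondrial ribosomal protein genes, 34 translation factors and 43 ribosome biogenesis factors was called in either direction (limma), beside 2.28% of all promoters higher and 9.3% lower. Before adjustment, at p under 0.05, the counts higher were 1, 0 and 0 and those lower 5, 3 and 3. Their median differences were −0.27, −0.28 and −0.45. Fau, a ubiquitin-like fusion to a small-subunit protein, had 815, 456 and 557 counts in MG and 619, 578 and 371 in BMDM. Eef1a1, the elongation factor that brings aminoacyl-tRNA to the ribosome, had 2368, 1528 and 1652 in MG and 2087, 1730 and 1049 in BMDM. Fau and Eef1a1 repeated the members' order, with MG 1 highest and BMDM 3 lowest.

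Peaks away from the promoters did differ near some members. The annotation gave 134 peaks outside 1 kb to 42 member genes, 24 of them to Rplp1 alone, and 128 were tested. Of these 7 rose in BMDM (5.47%, where 6.24% of all such peaks did) and 0 fell (1.05% of all; 24 and 6 at an unadjusted p under 0.05, limma). The share that rose was near that of all peaks outside 1 kb. A peak is given to the nearest start site, so these peaks need not act on the gene whose name they carry. Every one of the 7 lost its call under limma-voom (adjusted p 0.0505 to 0.0742) and without BMDM 1, BMDM 2 or MG 3. In those 4 fits 0 peaks of the whole table were called in either direction (limma; 8946 to 13899 higher and 4615 to 7149 lower before adjustment at p under 0.05). The differences of the 7 peaks there were 1.18 to 2.96, all higher in BMDM, beside 1.32 to 2.78 in the fit over all 6 libraries.

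Of the 7, the peaks with the lowest p-values were near Rpl11 and Rpl5, whose proteins bind 5S rRNA and, outside the ribosome, the p53 regulator Mdm2. The Rpl11 peak (chr4:136088545-136089221, intergenic, −35117 bp from the start) had 4.76, 11.5 and 10.7 counts in MG and 49.6, 80.9 and 65.2 in BMDM, a difference of 2.78 ± 0.46 (limma adjusted p 0.026). The Rpl5 peak (chr5:107922780-107923325, annotated to an intron, 16158 bp from the start) had 23.0, 29.0 and 26.2 in MG and 139, 111 and 129 in BMDM, a difference of 2.23 ± 0.31 (limma adjusted p 0.026). In both the groups were far apart. The promoters of the same genes overlapped, with 856, 506 and 588 counts in MG and 694, 707 and 442 in BMDM for Rpl11, and 793, 479 and 548 against 573, 559 and 313 for Rpl5.

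The other 5 were near Rps9, Rps27l, Rpl21, Rps14 and Rplp1. A peak 4139 bp from the start of Rps9 (chr7:3709755-3710169, intergenic) had 29.4, 36.1 and 18.5 counts in MG and 93.2, 143 and 85.1 in BMDM (1.91 ± 0.37, limma adjusted p 0.0278). A peak near Rps27l (chr9:66942616-66942855, −3231 bp) had 19.0, 39.4 and 29.2 in MG and 97.2, 75.1 and 67.0 in BMDM (1.46, limma adjusted p 0.0458). A peak near Rpl21 (chr5:146829615-146829903, −2987 bp) had 33.3, 43.2 and 29.2 in MG and 89.3, 91.9 and 83.3 in BMDM (1.32, limma adjusted p 0.0395). The differences at the peaks named after Rps14 (−11204 bp, intron) and Rplp1 (246831 bp, intergenic) were 1.42 and 2.30, with limma adjusted p of 0.0442 and 0.045. All 5 had groups that did not overlap.

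Within 1 kb 78 member peaks were tested, with 0 called higher (2.12% of all such peaks; limma, 0 at an unadjusted p under 0.05) and 1 lower (1.28%, where 3.25% of all were). This was the smaller of the 2 Rpl3 peaks (chr15:80092488-80092919, −620 bp), with 88.8, 126 and 92.3 counts in MG and 49.6, 34.3 and 30.8 in BMDM, a difference of −1.41 ± 0.34 and a limma adjusted p of 0.039. The −620 bp is the distance to another start in the authors' annotation. The RefSeq start of Rpl3 is at chr15 position 80083406, so this peak is not within 1 kb of it. The authors' deposited table, at its own adjusted p under 0.05, called 11 member peaks outside 1 kb higher (10.5% of all such peaks) and 1 lower (4.63%), near Rps13. Within 1 kb the authors' deposited table called 0 higher (3.54%) and 1 lower (8.14%), the same Rpl3 peak, with a log2 fold change of −1.44 and an adjusted p of 0.0129. For the Rpl11 and Rpl5 peaks above, the authors' deposited table gives log2 fold changes of 2.86 and 2.27, with adjusted p of 7.41e-05 and 1.53e-05.

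**Figure D5:**
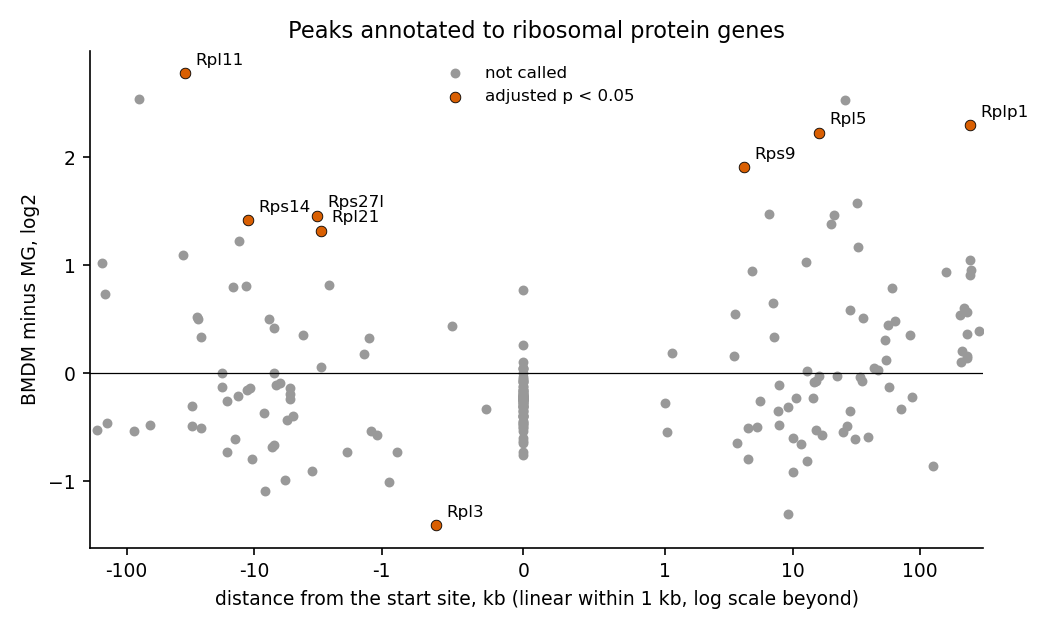
Difference between groups (log2, BMDM minus MG) at the tested peaks of ribosomal protein genes against distance from the start site (kb, linear within 1 kb and log scale beyond). Peaks within 1 kb have a median of −0.25 and run from −1.41 (Rpl3) to 0.77 (a small peak of Rps14), and the called peaks (orange, limma adjusted p under 0.05) are 7 peaks outside 1 kb that are higher in BMDM and the Rpl3 peak that is lower. Distances are to the start in the authors' annotation, which for these Rpl3 and Rps14 peaks is not the RefSeq start.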

How the data were processed

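Groups and replicate numbers of the 3 MG and 3 BMDM libraries came from the labels. The authors used DESeq2 1.36.0, ChIPseeker 1.32.1, MACS2 2.1.1.20160309, cutadapt 1.8.1 and Bowtie2 2.4.1 with the build mm10, per the submitters' processing notes. Their settings, any read shift and any duplicate removal were not given in the sources used here. Deposited by the authors were 1 table, whose library columns hold variance-stabilized log2 values beside a mean normalized signal, log2 fold changes and p-values per peak, and 1 peak list per library, with a fold enrichment and a −log10 p and −log10 q. A further 8 per-sample columns match none of the libraries and stayed out. From 93084 lines, after 155 repeats and 65 peaks with no annotation were dropped, 92864 peaks remained.

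Inverting the stabilization gave normalized counts with a mean within 2.4e-06, as a share, of the deposited one, and recovered reads were whole numbers to within 0.02 in 99.998% or more of peaks. The limit that 3 reads allow was 1.64 (MG 2) to 5.95 (BMDM 1) normalized counts. This limit covers counting error only, since PCR reads are not independent molecules.

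On log2(normalized count + 1), limma 3.58.1 with a trend (R 4.3.3) was run over all features with a mean of at least 10, per peak and per promoter, and p-values were Benjamini-Hochberg adjusted over all features tested at 0.05. Fold changes on this scale understate those of low peaks. The members, the gene lists and the alternatives (scaling, filter, pseudocount, limma-voom, replicate block, each library left out) were chosen with earlier results of these data known. Described with values are the 5 highest and lowest by mean, difference and SD, members past the threshold, paralogs, Rpsa, Rplp0 to Rplp2, members with no promoter peak, and the 3 promoters most like the members. Rps6, Rpl15, Rps14, Rpl5, Rpl11, Eef1a1 and the printed sequences were chosen after their values were seen. A few named members fall under this rule but are not described here.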

Additional observations from a re-analysis of the deposited data

How the results depend on the processing

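The count of ribosomal protein promoters called stayed at 0 in each direction under every alternative run, except that cyclic loess called 1 higher (Rpl41, 0.43, limma adjusted p 0.0328) and 1 lower (Rpl10a, −0.35, 0.0491), and that leaving out a library gave 0 to 1 lower (Rps4l without MG 2, −1.23, 0.0302). Over all promoters the calls higher and lower in BMDM were 615 and 452 with cyclic loess and 87 and 89 with size factors from the members, and those lower were 677 with library totals and 817 with limma-voom. Leaving out each library gave 117 to 403 higher and 491 to 1732 lower, with the fewest higher without BMDM 2 and the fewest lower without MG 3. The median SD of the members fell to 0.21 with library totals. The members' share of reads turned from −0.0198 to 0.0148 percentage points within promoter peaks, and leaving out each library gave −0.0495 (without MG 2) to 0.0098 (without MG 1). Depth limits single peaks most: the median peak held 20 (BMDM 1) to 90 (MG 2) reads. Over all peaks 4687 were higher and 1352 lower in BMDM. Those lower were 2305 with cyclic loess and 383 with size factors from the members, those higher 2403 with a mean of at least 50, and both were 0 with limma-voom (13899 and 7149 at an unadjusted p under 0.05). Member peaks outside 1 kb called higher numbered 11 with library totals, 4 with TMM factors and 0 with limma-voom (24 at an unadjusted p under 0.05), and 2 were lower with cyclic loess. Leaving out each library gave 0 to 10640 peaks higher and 0 to 11306 lower, and 0 to 17 member peaks outside 1 kb higher and 0 to 7 lower. The limma count was 0 without BMDM 1, BMDM 2 or MG 3 (8946 to 10421 higher at an unadjusted p under 0.05, and 17, 13 and 16 member peaks) and highest without MG 1. The cause of these changes was not tested. After each promoter's group mean was subtracted, same-numbered libraries correlated at 0.521, −0.156 and 0.436 over promoters. Differently numbered libraries ran from −0.573 (MG 1 with BMDM 3) to 0.525 (MG 2 with BMDM 3). The numbers were therefore not taken to pair the libraries. With a replicate block 9212 peaks were higher and 5215 lower, with 12 and 2 member peaks outside 1 kb, and 412 promoters were higher and 1891 lower, with 0 members (4 lower at an unadjusted p under 0.05). An alternative added after the data were seen, which added the 9 start-site peaks named after other genes, also gave 0 of 78 (1 lower at an unadjusted p under 0.05).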

Other observations

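The names with -ps, which mark pseudogenes of ribosomal proteins, were left out of the members and served as a look at non-coding copies. There were 6 such names with 13 peaks, of which 1 lay within 1 kb of a start site, that of Rpl14-ps1. It held 19.0, 21.9 and 10.7 normalized counts in MG and 15.9, 37.6 and 39.9 in BMDM, far below its parent gene Rpl14 with 1048, 606 and 666 in MG and 891, 776 and 433 in BMDM. The pseudogene peak was lowest in MG 3 and highest in BMDM 3, where the parent promoter was lowest. Of the 13 peaks 11 passed the filter and 0 were called in either direction (limma; at an unadjusted p under 0.05, 1 in each direction).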
